A study of Mus musculus with 4 samples.

Results

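MicroRNAs are short RNAs cut from hairpin transcripts, and the accessible chromatin regions that the study assigned to their genes are described here. The regions were chosen by the name of their nearest gene, which had to begin with Mir or Mirlet followed by a digit and not end in hg, the suffix of host transcripts. This gave 1375 of 80929 regions and 576 of 26614 gene names. A total of 258 names had 1 region, 250 had 2 to 4 and 68 had 5 or more. The assay was ATAC-seq, which reads where a transposase can insert adapters in open chromatin, and the cells were RAW264.7, a macrophage-like line of mouse origin. Cells were collected after 48 h, and 2 libraries carry the title Gel and 2 the title CuNZ@Gel, which the series title describes as a nanozyme hydrogel meant for diabetic wounds. The treatment text is identical for all 4 samples and names CuNZ@Gel, so the group of each library rests on its title. All libraries come from 1 cell line. Whether the replicates of a group came from different cultures is not stated in the labels. The p-values therefore cover the spread among these 4 libraries, part of which can be technical.

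A microRNA is transcribed as part of a longer RNA, cut in the nucleus by Drosha with Dgcr8 and in the cytoplasm by Dicer1, and loaded into an Argonaute protein. The loaded strand then pairs, mainly through its seed near the 5′ end, with messenger RNAs, which are repressed. In macrophages, miR-155 amplifies the response to microbial signals, miR-146a restrains it, and miR-223 and miR-142 are marks of blood cells. Accessibility of a region near such a gene is not a measurement of the microRNA itself. The nearest gene is the assignment of the authors, and no GRCm39 gene annotation was used here, so regions are not placed in a promoter, exon or intron.

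The mature sequences below are those of microRNAs named in the results, grouped by shared seed. Names with different chromatin values can so be seen to make related or identical RNAs. The sequences were not measured here. They are from RefSeq (GRCm38.p6), written 5′ to 3′, with the seed (bases 2 to 8) in capitals. Of the 576 names, 552 matched a RefSeq gene and 491 had a mature sequence. The first sequences are those of the inflammatory and blood-cell microRNAs.
Mir155: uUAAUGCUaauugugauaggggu
Mir146: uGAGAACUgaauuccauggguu
Mir146b: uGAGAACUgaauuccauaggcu
Mir21a: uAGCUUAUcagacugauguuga
Mir221: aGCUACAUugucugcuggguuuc
Mir222: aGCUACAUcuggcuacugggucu
Mir223: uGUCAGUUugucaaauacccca
Mir142: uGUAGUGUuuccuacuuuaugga
Mir15a: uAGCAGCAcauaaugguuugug
Mir16-2: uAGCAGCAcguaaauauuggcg

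The next sequences are those of families whose genes lie at several places in the genome. Mir29b-1 and Mir29b-2 make 1 identical RNA, and so do Mir3074-1 and Mir3074-2. Mir24-2, a name that no region carried, is cut from the opposite strand of Mir3074-2.
Mir29a: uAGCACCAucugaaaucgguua
Mir29b-1: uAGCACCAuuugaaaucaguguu
Mir29b-2: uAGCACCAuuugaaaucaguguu
Mir29c: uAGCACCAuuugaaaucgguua
Mirlet7c-1: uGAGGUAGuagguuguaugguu
Mirlet7d: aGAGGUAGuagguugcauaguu
Mirlet7i: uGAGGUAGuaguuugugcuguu
Mir3074-1: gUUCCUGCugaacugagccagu
Mir3074-2: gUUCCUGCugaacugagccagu
Mir24-2: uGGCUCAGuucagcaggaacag

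The last pair belongs to the names nearest to the largest single rise and the largest single fall.
Mir3066: uUGGUUGCuguagauuaaguag
Mir6938: uCAUCUGGggcugucuccuuag

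The libraries differed between the groups before any gene was considered. Reads in regions, recovered from the deposited values, numbered 18843565 and 17914906 in Gel and 7440949 and 10236694 in CuNZ@Gel. The background pileup of the genome, derived from the deposited peak folds, was 1.003 and 0.962 in Gel and was higher, 1.168 and 1.201, in CuNZ@Gel. Reads in regions per unit of this background, in 1e6, were 18.8 and 18.6 for the Gel libraries but 6.37 and 8.52 for the CuNZ@Gel libraries, and this difference and the group cannot be told apart. Changes are therefore given as CuNZ@Gel minus Gel on the deposited log2(RPM + 1) scale, where RPM is the authors' depth-scaled read number, and with 2 other scalings where these change the reading. One is a cyclic loess scaling, which takes out the trend between change and level. The other, background pileup scaling, moved the median change of all gene names from -0.10 to -1.06, so its values are read against -1.06. All 8 macrophage markers (Adgre1, Csf1r, Cd68, Itgam, Spi1, Ptprc, Lyz2 and Cd14) had regions, with mean sums of 87.8 to 171 RPM and none at 0. Their summed level was 1219 and 1226 RPM in Gel and 951 and 975 RPM in CuNZ@Gel. In these markers 1 sum rose and 6 fell (12.5% and 75%, all names 20.5% and 36.1%). With the loess scaling 3 rose and 3 fell (37.5% each, all names 24.2% and 22.8%). The part of the markers in the results below was not tested.

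On the deposited scaling, regions near microRNA genes were called higher in CuNZ@Gel more often than lower, whereas over all regions both directions were about equally frequent. Of the 1375 regions, 1330 passed the filter on low values, 309 rose and 190 fell (limma, Benjamini-Hochberg adjusted p under 0.05). These were 23.2% and 14.3% of those tested, against 21.2% and 21.9% of all 77014 regions tested. Their median change was 0.06, against -0.004 over all regions. At an unadjusted p under 0.05, 575 microRNA regions passed (43.2%, all regions 49%). On the loess scaling 258 rose and 147 fell (19.4% and 11.1%, all regions 18.8% and 13.8%), so rises outnumbered falls over all regions too. With scaling by the totals of reads in regions 434 rose and 83 fell (32.6% and 6.24%, all regions 30% and 11.9%). Background pileup scaling gave 66 rises and 767 falls (4.96% and 57.7%, all regions 4.85% and 60.6%). The calls partly moved between scalings: of the 499 called regions, 328 were called in the same direction with the loess scaling and 5 in the opposite one. Without Gel replicate 2, the counts were 201 higher and 112 lower (15.1% and 8.42%, all regions 15% and 15.7%), so the shares of rises were then alike. In bulk libraries, fewer cells with an open region and less access in each cell cannot be told apart.

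In a sum over the regions of each name, 561 of 576 names were tested, 146 rose and 110 fell. These were 26.0% and 19.6%, against 20.5% and 36.1% of all 25900 gene names tested. The median change was 0.05 for microRNA names and -0.10 for all names. The loess scaling gave 145 rises and 91 falls (25.8% and 16.2%, all names 24.2% and 22.8%). Library totals gave 230 and 39 (41.0% and 6.95%, all names 34.3% and 18.7%). Background pileup scaling gave 19 and 386 (3.39% and 68.8%, all names 2.78% and 75.5%). The values of the 2 groups did not overlap in 400 of the 561 sums (71.3%, all names 76.9%) and in 863 of the 1330 regions (64.9%, all regions 68.3%). The microRNA regions took 1.17% and 1.16% of the RPM of the Gel libraries and 1.35% and 1.33% of that of the CuNZ@Gel libraries.

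The direction of change followed the level of a region, and microRNA regions were weaker than the average region. Their median level was 2.41 on the log2(RPM + 1) scale, against 2.56 for all tested regions, and their median width was 459 bases against 485. Only 74 of the 1330 lay in the top decile of level. In that decile 79.7% of the microRNA regions fell, with a median change of -0.49, and 86.9% of all regions fell, with a median of -0.60. In the ninth decile 40.6% of the 101 microRNA regions fell and 18.8% rose, against 55.8% and 12.1% of all regions there. In the weakest decile 26.5% of the 136 microRNA regions rose, against 28.1% of all regions. Within the 2 lowest deciles 2 regions fell in each.

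**Figure D1:**
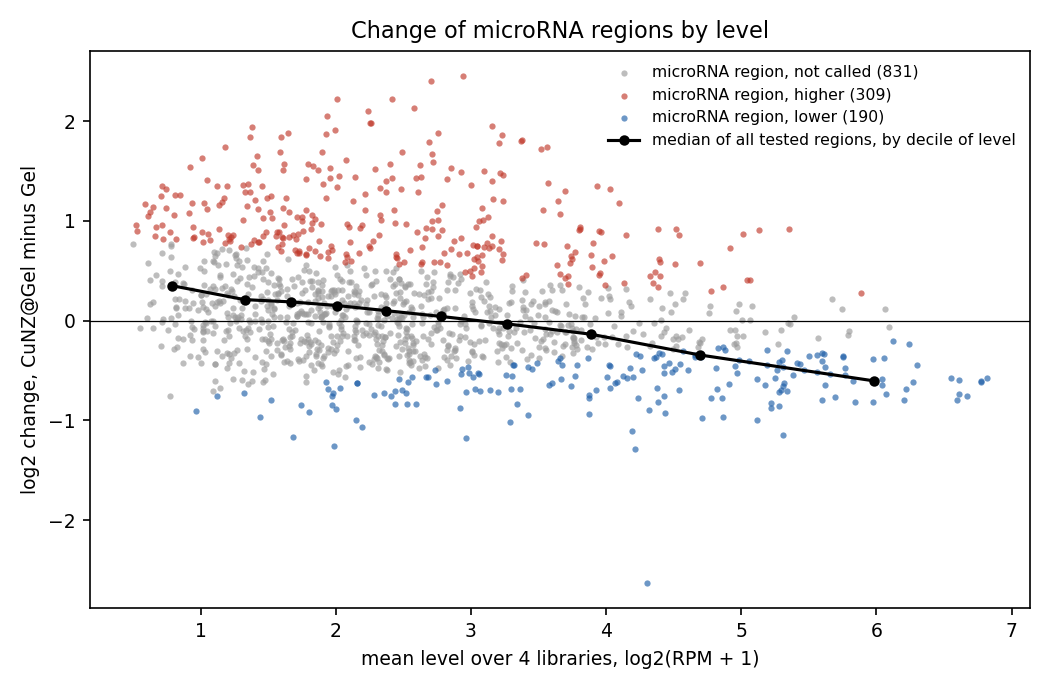
Each point is a tested microRNA region, with its mean level over the 4 libraries on the x axis, log2(RPM + 1), and its log2 change, CuNZ@Gel minus Gel, on the y axis; red marks the 309 higher, blue the 190 lower and grey the regions not called, and the black line joins the medians of all tested regions by decile of level. Falls lie mainly at high levels and rises at low and middle levels, and the line descends from 0.35 to -0.60.

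**Figure D2:**
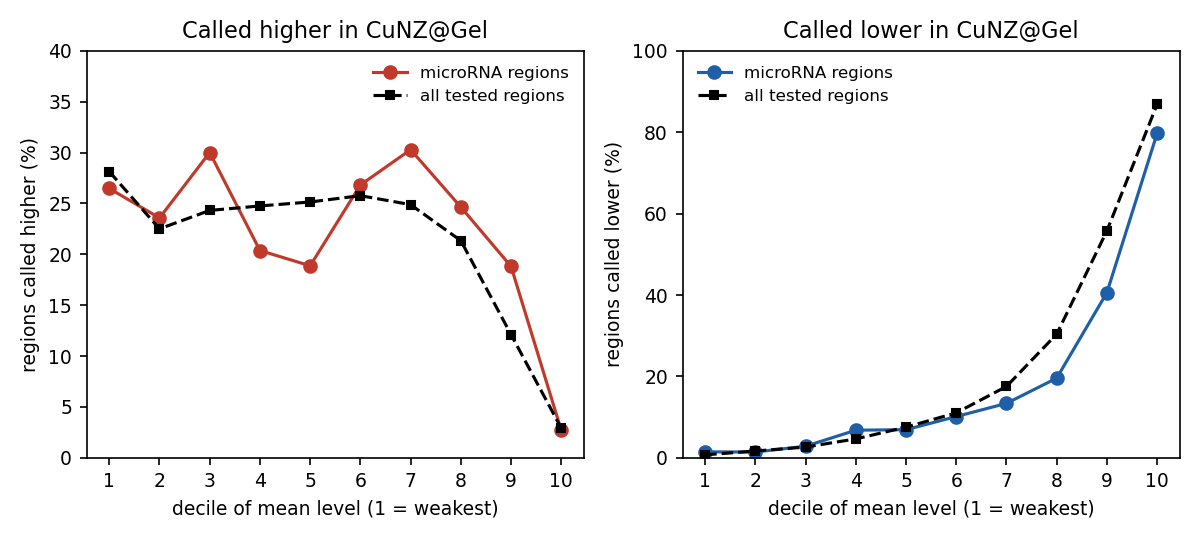
The share of regions called higher (left) and lower (right), in percent, is plotted against the decile of mean level, with circles for microRNA regions and squares for all tested regions. In the right panel both lines climb, to 79.7% and 86.9% in decile 10, with the microRNA line below the other from decile 5 on; the left axis ends at 40% and the right axis at 100%.

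Peaks near microRNA genes were found in all 4 libraries for 483 regions (35.1%, against 39.6% of all regions). Peaks present in both Gel libraries and in neither CuNZ@Gel library marked 178 regions (12.9%, all regions 11.1%), and the reverse pattern marked 32 (2.33%, all regions 2.28%). Peak lists depend on read numbers and on background. Both CuNZ@Gel libraries had fewer reads in regions and a higher background pileup, and the part of each in these patterns was not tested. The number of microRNA regions with a peak was 1018 and 1003 in Gel and 634 and 816 in CuNZ@Gel.

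MicroRNAs of inflammatory signalling moved in both directions. Of 21 names listed, 12 had a region and were tested, and 4 rose (Mir155, Mir221, Mir147 and Mir187) and 5 fell (Mir21a, Mir146b, Mir132, Mir146 and Mir210), with a median change of 0.05. These were 33.3% and 41.7%, against 20.5% and 36.1% of all names. With the loess scaling 5 rose and 3 fell (41.7% and 25%, all names 24.2% and 22.8%). The names came from a list chosen with earlier results of these data known, so the counts are a description.

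Mir155, which lies in the noncoding host transcript Mir155hg and is induced by microbial signals, held 2.16 and 2.48 RPM in Gel and 8.37 and 4.71 RPM in CuNZ@Gel. Both CuNZ@Gel libraries lay above both Gel libraries, although all 4 levels were low and the 2 CuNZ@Gel values were far apart. The sum rose by 1.14 ± 0.25 (SE, adjusted p = 0.000662), or 2.82-fold in mean RPM, and on background pileup scaling it was 0.30 and not called. Both of its regions rose, at chr16:84510901-84511405 (0.81) and chr16:84517762-84518045 (1.11). With the loess scaling the first was not called (0.59) and the second was (0.83). These regions rest on 9 to 38 reads in each library. The sum of the regions nearest to Mir155hg rose too, from 17.2 and 19 RPM to 27.5 and 26.1 RPM (0.54 ± 0.12).

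The other called rises in this list were smaller. Mir221, whose RNA shares its seed with miR-222 and targets the cell cycle inhibitor p27, held 24.7 and 25.5 RPM in Gel and 40.9 and 46.2 RPM in CuNZ@Gel (0.77 ± 0.10, adjusted p = 2.32e-06; -0.26 with background pileup scaling). Of its 8 regions 6 rose, and the largest rise, 1.94 at chrX:18909443-18909760, was in a region with a peak in both CuNZ@Gel libraries and in neither Gel library. Mir147, a microRNA induced by Toll-like receptor signals that dampens cytokine output, held 14.6 and 12.9 RPM in Gel and 18.9 and 19.8 RPM in CuNZ@Gel. Its change was 0.46 ± 0.13, and the call was lost without Gel replicate 2 (0.38). Mir187, which acts downstream of interleukin-10, held 43.3 and 39.0 RPM in Gel and 53.5 and 44.7 RPM in CuNZ@Gel (0.24 ± 0.10, adjusted p = 0.0382). That call was lost without Gel replicate 2 (0.17) and, separately, without CuNZ@Gel replicate 1 (0.12). On background pileup scaling Mir221, Mir147 (-0.53) and Mir187 (-0.79) lay below 0 and above the median of all names.

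Mir21a, a microRNA induced in inflammation and in wounds that lies within Vmp1, had the most summed reads in this list and fell. It held 302 and 296 RPM in Gel and 179 and 185 RPM in CuNZ@Gel, with no overlap and little spread within either group. The change was -0.71 ± 0.04 (adjusted p = 1.09e-10), and -0.24 with the loess scaling, which kept the call. Of its 6 regions 4 fell, and the one with the most reads, chr11:86477159-86478440, went from 126 and 113 RPM to 75.9 and 80.6 RPM. This region was not called with the loess scaling (0.13).

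Mir146 and Mir146b make RNAs with 1 seed that restrain the Toll-like receptor adaptors Irak1 and Traf6, and both fell. Mir146 held 83.0 and 84.4 RPM in Gel and 63.8 and 57.03 RPM in CuNZ@Gel, a change of -0.47 ± 0.07 that was not called with the loess scaling (-0.10). Mir146b held 11.4 and 10.3 RPM in Gel and 4.97 and 7.64 RPM in CuNZ@Gel (-0.72 ± 0.19, and -0.88 with the loess scaling). The Mir146b call was lost without CuNZ@Gel replicate 1 (-0.45). Among the 8 regions of Mir146 the one with the most reads, chr11:43275879-43276663, fell by 0.85 on the log2 scale and a weak one, chr11:43240312-43240665, rose by 0.97.

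Mir132, which is induced by CREB, held 43.8 and 39.1 RPM in Gel and 26.3 and 28.4 RPM in CuNZ@Gel (-0.58 ± 0.10). With the loess scaling its sum was still called (-0.37), but its only region, with the scaling fitted over regions, was not (-0.19). Mir210, the microRNA of the hypoxia response, held 92.8 and 88.9 RPM in Gel and 65.9 and 67.4 RPM in CuNZ@Gel (-0.44 ± 0.07). The direction at Mir210 depended on the scaling: its only region was called higher with the loess scaling fitted over regions (0.22), and its sum was not called with the loess scaling fitted over sums (-0.06). Mir125b-2 (0.08 ± 0.09), Mir222 (0.02 ± 0.11) and Mir9-2 (0.22 ± 0.35) did not pass the test. Mir125b-2 was called higher with the loess scaling (0.35).

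**Figure D3:**
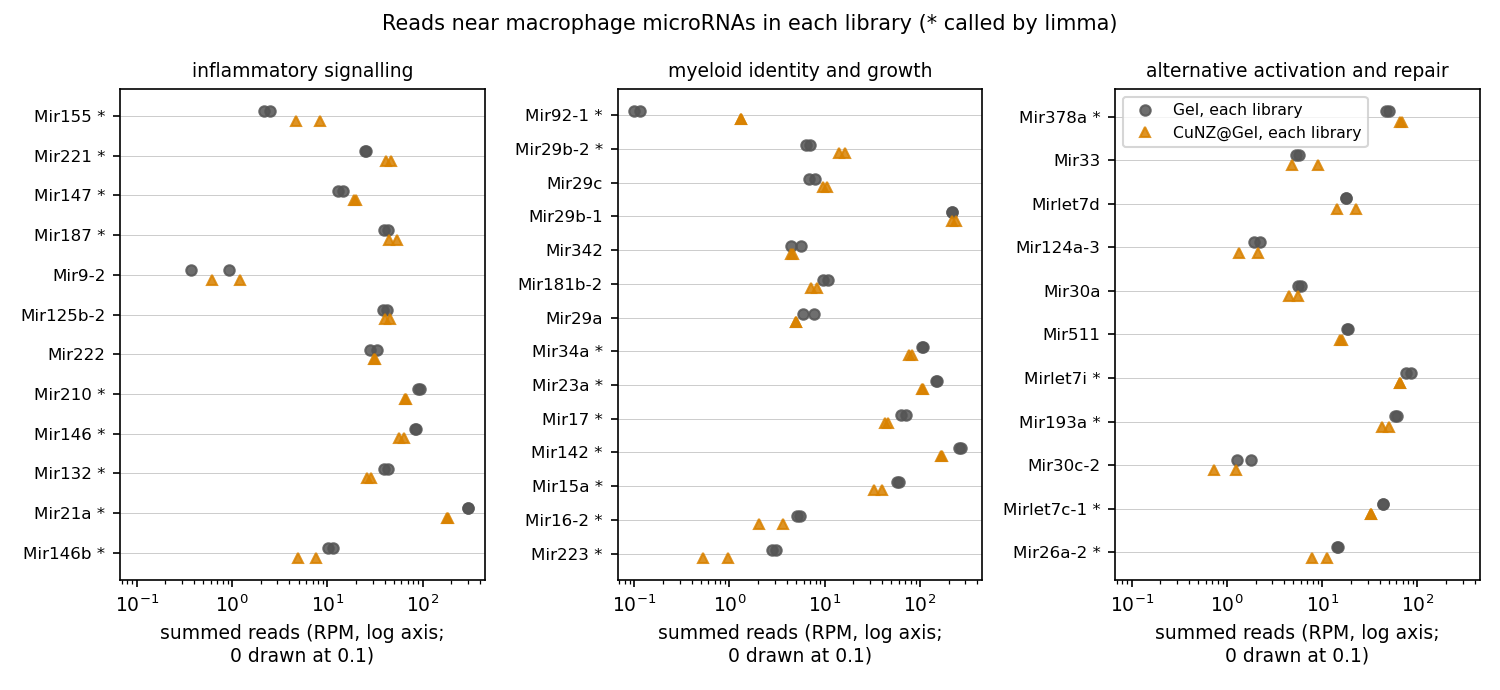
Each row is a microRNA of the 3 macrophage lists with a tested sum, the x axis gives its summed reads in RPM on a log axis (0 drawn at 0.1), grey circles are the 2 Gel libraries and orange triangles the 2 CuNZ@Gel libraries, and an asterisk marks a called change on the deposited scaling. Rows are ordered by change within each panel, and the CuNZ@Gel points of Mir155 at 8.37 and 4.71 RPM lie right of the Gel points while those of Mir21a and Mir142 lie left of theirs.

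Among microRNAs of myeloid identity and growth, falls outnumbered rises. Of 29 names, 14 had a region and were tested, 2 rose (Mir92-1 and Mir29b-2) and 7 fell, with a median change of -0.40. The shares were 14.3% and 50%, against 20.5% and 36.1% of all names. The loess scaling also gave 2 rises and 7 falls (all names 24.2% and 22.8%), with a median of -0.22, but not of the same names. Mir92-1 (0.72), Mir34a (-0.04) and Mir23a (-0.06) lost their calls there, and Mir29b-1 (0.53), Mir181b-2 (-0.51) and Mir29a (-0.57) were called.

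Mir142, which is expressed across blood cells, held 271 and 256 RPM in Gel and 166 and 169 RPM in CuNZ@Gel. All CuNZ@Gel values were lower, with a change of -0.65 ± 0.05 (adjusted p = 9.48e-10; -0.18 with the loess scaling, still called). Mir223, which is restricted to myeloid cells and driven by the factors PU.1 and C/EBP, held 3.09 and 2.78 RPM in Gel and 0.971 and 0.533 RPM in CuNZ@Gel (-1.18 ± 0.29, adjusted p = 0.00179). This change rests on few reads: the called region, chrX:95300036-95300457, held 36 and 21 reads in Gel and 5 and 3 in CuNZ@Gel. The second region, chrX:95299004-95299179, held 17 and 24 reads in Gel and 3 in each CuNZ@Gel library and did not pass the test.

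MicroRNAs tied to growth were called in both directions. Mir17, first member of a polycistron that promotes proliferation, held 62.6 and 70.5 RPM in Gel and 42.4 and 46.1 RPM in CuNZ@Gel (-0.58 ± 0.08). Mir92-1, which lies in the same host transcript Mir17hg, had 1 region with 2 and 0 reads in Gel and 11 and 15 in CuNZ@Gel. Its sum was called higher (1.14 ± 0.35), but not without Gel replicate 2 (1.06) or with the loess scaling (0.72), and with so few reads the value depends on the pseudocount.

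Mir15a, in Dleu2, and Mir16-2, in Smc4, make RNAs with 1 seed that target Bcl2 and cyclins. Mir15a held 57.8 and 59.6 RPM in Gel and 33.1 and 39.5 RPM in CuNZ@Gel (-0.68 ± 0.09), and both of its regions fell. Mir16-2 held 5.54 and 5.08 RPM in Gel and 2.06 and 3.64 RPM in CuNZ@Gel (-0.74 ± 0.24, adjusted p = 0.014). The Mir16-2 call was lost without Gel replicate 1 (-0.69), Gel replicate 2 (-0.79) or CuNZ@Gel replicate 1 (-0.44).

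Mir34a, a target of p53, held 108 and 106 RPM in Gel and 81.6 and 75.9 RPM in CuNZ@Gel (-0.43 ± 0.06), and was not called with the loess scaling (-0.04). Mir23a held 151 and 147 RPM in Gel and 105 and 107 RPM in CuNZ@Gel (-0.49 ± 0.06), again not called with the loess scaling (-0.06). Mir181b-2 (-0.36 ± 0.17) and Mir342 (-0.11 ± 0.22), which lies in Evl, did not pass the test on the deposited scaling.

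The alternative activation, lipid and repair list had the fewest calls of the 3 lists. Of 22 names, 12 had a region and 11 were tested, 1 rose (Mir378a) and 4 fell (Mir26a-2, Mirlet7c-1, Mir193a and Mirlet7i), with a median of -0.21. The shares were 9.09% and 36.4%, against 20.5% and 36.1% of all names, so the share of falls was like that of all names. On the loess scaling 1 rose and 1 fell (9.09% each, all names 24.2% and 22.8%). Mir30d, with 1 weak region of 4 to 15 reads, did not pass the filter.

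Mir378a, a microRNA induced by interleukin-4 that lies in Ppargc1b, held 49.9 and 46.8 RPM in Gel and 65.1 and 69.2 RPM in CuNZ@Gel (0.47 ± 0.08, adjusted p = 4.81e-05; -0.57 with background pileup scaling). Of its 7 regions 3 rose, by 0.70 to 1.98, and none fell. The one with the most reads, chr18:61527212-61528283, held 31.7 and 30.4 RPM in Gel and 31.04 and 31.4 RPM in CuNZ@Gel (0.01 ± 0.11). Mir511, in the mannose receptor gene Mrc1, held 18.7 and 18.1 RPM in Gel and 15.5 and 16.2 RPM in CuNZ@Gel and did not pass the test (-0.21 ± 0.13). Mir33, in the sterol regulator Srebf2, held 5.25 and 5.69 RPM in Gel and 4.85 and 8.97 RPM in CuNZ@Gel, so the groups overlapped (0.24 ± 0.23; called without CuNZ@Gel replicate 1, 0.62).

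Mir26a-2, in Ctdsp2, fell from 14.3 and 14.8 RPM to 7.76 and 11.3 RPM (-0.58 ± 0.17, and -0.68 with the loess scaling). That call was lost without CuNZ@Gel replicate 1 (-0.34). Mir193a fell by 0.36 on the log2 scale and was not called with the loess scaling (-0.04). Mir30a (-0.19 ± 0.21), Mir30c-2 (-0.36 ± 0.31) and Mir124a-3 (-0.18 ± 0.28) did not pass the test.

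Over the 3 macrophage lists together, 38 of 72 names had a region, 37 were tested, 7 rose and 16 fell (18.9% and 43.2%, all names 20.5% and 36.1%), with a median of -0.29 against -0.10 for all names. On the loess scaling 8 rose and 11 fell (21.6% and 29.7%, all names 24.2% and 22.8%), with a median of -0.10 against -0.03. On the deposited scaling 23 of the 37 lay below the median change of all names, on the loess scaling 23, and on background pileup scaling 20.

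**Figure D4:**
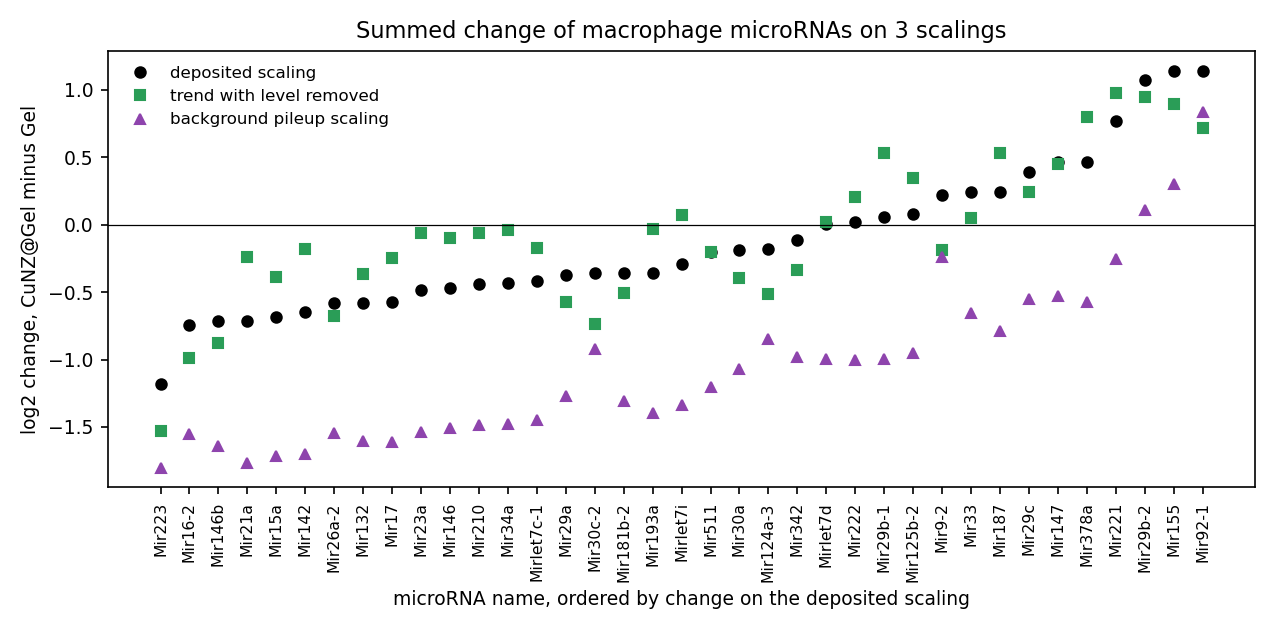
The log2 change, CuNZ@Gel minus Gel, of each of the 37 tested sums of the 3 macrophage lists is plotted on the deposited scaling (black circles), with the trend with level removed by loess (green squares) and on background pileup scaling (purple triangles), with names ordered on the x axis by the deposited change. Purple triangles lie below the black circles for each of the names, Mir155 at 1.14, 0.89 and 0.30 stays above 0 on these 3 scalings, and strongly accessible names such as Mir21a move up with loess, from -0.71 to -0.24.

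Genes that make RNAs with 1 seed, or even 1 identical RNA, were in some cases called in opposite directions on the deposited scaling. Among the tested names, 56 seeds were shared by at least 2 names (115 names). Of these seeds 14 had at least 2 called names, and 6 of the 14 had names called in opposite directions. Among all 561 tested microRNA names 146 rose and 110 fell, so both directions were frequent in general. The 6 of 14 were not tested against names of different seeds and are a description. The 4 genes of the miR-29 family, whose RNAs repress collagens, had 1 called sum. Mir29b-2 held 6.999 and 6.44 RPM in Gel and 16.3 and 14.2 RPM in CuNZ@Gel (1.07 ± 0.16, adjusted p = 1.3e-05), and on background pileup scaling the change was 0.11 and not called. Its rise came from 1 of 2 regions, chr1:194716310-194716551, which went from 2.62 and 2.72 RPM to 10.2 and 11.2 RPM. Mir29c, in the same host A330023F24Rik, held 7.99 and 6.81 RPM in Gel and 10.5 and 9.51 RPM in CuNZ@Gel (0.39 ± 0.17, adjusted p = 0.0604).

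Mir29b-1, which makes the same RNA as Mir29b-2 from chromosome 6, held 215 and 217 RPM in Gel and 215 and 237 RPM in CuNZ@Gel. Its sum did not pass the test (0.06 ± 0.05), but was called higher with the loess scaling (0.53) and without CuNZ@Gel replicate 1 (0.13). The sum covered unequal changes in its 10 regions, of which 3 rose and 2 fell. The region chr6:31065091-31066118 went from 7.82 and 9.40 RPM to 18.4 and 29.8 RPM (1.35 ± 0.16), and chr6:31102286-31104115 from 58.1 and 53.0 RPM to 38.8 and 38.0 RPM (-0.52 ± 0.09, and -0.03 with the loess scaling). Mir29a, in the same cluster, held 7.70 and 5.88 RPM in Gel and 4.97 and 4.98 RPM in CuNZ@Gel and did not pass the test (-0.37 ± 0.20; called lower with the loess scaling, -0.57).

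Mir3074-1 and Mir3074-2 lie on the strand opposite to Mir24-1 and Mir24-2, in the paralogous clusters of miR-23, miR-27 and miR-24, and their names moved in opposite directions. Mir3074-1, in Aopep beside Mir23b and Mir27b, held 34.2 and 33.7 RPM in Gel and 54.2 and 60.5 RPM in CuNZ@Gel (0.74 ± 0.09, adjusted p = 7.98e-07), and 5 of its 9 regions rose. On background pileup scaling this sum was at -0.30, above the median of all names. Mir3074-2, beside Mir23a and Mir27a, held 70.03 and 66.1 RPM in Gel and 43.4 and 43.8 RPM in CuNZ@Gel (-0.63 ± 0.08; -0.30 with the loess scaling, still called), and 2 of its 3 regions fell. The regions of these clusters were read through the names given here. No region carried the name Mir24-1, Mir24-2, Mir27a or Mir27b.

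Mir221 and Mir222 lie near each other on chromosome X. Mir222 held 33.2 and 28.4 RPM in Gel and 30.8 and 31.4 RPM in CuNZ@Gel, with overlapping groups, against the rise at Mir221; the difference between the names was not tested. Mir1928, which shares their seed but lies on chromosome 1, fell from 24.0 and 21.5 RPM to 17.5 and 13.3 RPM (-0.54 ± 0.14). Mir21c, which shares the seed of Mir21a, rose from 4.43 and 5.32 RPM to 10.1 and 9.77 RPM (0.90 ± 0.19; -0.02 with background pileup scaling).

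The let-7 family, whose RNAs oppose proliferation, had 3 names among the lists. Mirlet7c-1 fell from 44.0 and 43.9 RPM to 32.7 and 32.6 RPM (-0.42 ± 0.09; -0.17 with the loess scaling, not called). Mirlet7i fell from 75.5 and 84.9 RPM to 65.2 and 64.9 RPM (-0.29 ± 0.07), but stood at 0.07 with the loess scaling and was not called without Gel replicate 2 (-0.21). Mirlet7d held 17.96 and 17.9 RPM in Gel and 22.4 and 14.4 RPM in CuNZ@Gel and did not pass the test (0.01 ± 0.16). Within Mirlet7i, chr10:122818922-122819282 rose from 5.54 and 4.02 RPM to 12.0 and 11.02 RPM, while chr10:122821516-122822491 fell from 39.4 and 59.7 RPM to 25.7 and 28.3 RPM.

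**Figure D5:**
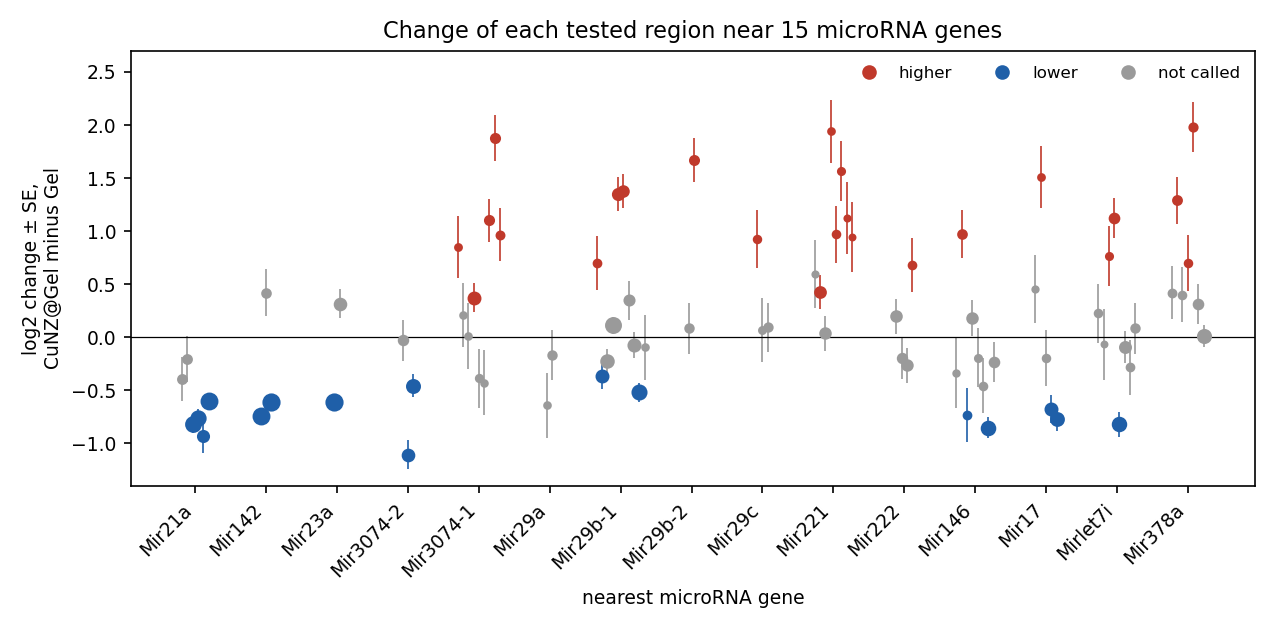
The log2 change of each tested region, CuNZ@Gel minus Gel, is plotted with its SE for 15 microRNA names, with points in order of position, larger points for higher levels, red for called higher, blue for called lower and grey for not called. Mir3074-1 and Mir221 have 5 and 6 red points and no blue one, Mir3074-2 and Mir21a have blue and grey points, and Mir29b-1 has 3 red and 2 blue points.

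The largest single rises were in regions that were weak in Gel. These are 5 of the called microRNA regions with the largest rise whose groups did not overlap. Their level was at or above the median of all regions. As this level was the mean over the 4 libraries, a region weak in Gel could pass through its CuNZ@Gel values alone. The low Gel values thus partly follow from the choice. The first was near Mir3066, whose gene lies within Nol10, at chr12:17426771-17427512. It held 2.16 and 2.41 RPM in Gel and 17.2 and 16.7 RPM in CuNZ@Gel (2.45 ± 0.19, adjusted p = 5.07e-15). It had a peak in both CuNZ@Gel libraries and in neither Gel library. The next was near Mir3095, whose gene lies within the lysophosphatidic acid receptor gene Lpar1. This region, chr4:58402032-58402504, held 2.16 and 1.55 RPM in Gel and 14.9 and 13.1 RPM in CuNZ@Gel (2.40 ± 0.21).

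The third was near Mir7023, whose gene lies in Pik3cd, which encodes the leukocyte catalytic subunit of PI3-kinase. This region, chr4:149716928-149717417, held 1.98 and 1.73 RPM in Gel and 12.5 and 10.57 RPM in CuNZ@Gel (2.13 ± 0.21). Peaks were again called in both CuNZ@Gel libraries and in neither Gel library. The others were near Mir6977 in Ptprs (chr17:56725065-56725752, 1.95) and Mir3074-1 (chr13:63490214-63491491, 1.88). These 5 regions stayed above 0 on background pileup scaling, at 1.004 to 1.57, which is a description because they were chosen for their rise.

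The named falls were chosen for their size among called regions at or above the median level whose groups did not overlap. This level was again the mean over the 4 libraries, so a region weak in CuNZ@Gel could pass through its Gel values. Mir6938 lies within the mismatch repair gene Mlh3. The region near it at chr12:85302561-85303468 held 48.8 and 47.3 RPM in Gel and 7.16 and 6.75 RPM in CuNZ@Gel (-2.63 ± 0.13, adjusted p = 1.13e-21). The groups were far apart, with a 6.91-fold higher mean in Gel. The neighbouring region of Mir6938, chr12:85303902-85304588, fell by 0.75 on the log2 scale, and the third region of that name, chr12:85280292-85280747, rose by 0.80. Mir6957 lies in the T-cell adaptor gene Grap2. The region near it at chr15:80518764-80519482 went from 31.0 and 25.2 RPM to 11.03 and 10.66 RPM (-1.29 ± 0.14).

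Mir6996 lies within Notch1. The region near it at chr2:26373005-26374101 held 58.0 and 58.1 RPM in Gel and 27.2 and 24.4 RPM in CuNZ@Gel (-1.14 ± 0.10). The others were near Mir7061 in Plekha1 (chr7:130502060-130502699, -1.17), Mir3074-2 (chr8:84946716-84947096, -1.11) and Mir466i in Cdk13 (chr13:17929596-17930214, -1.01). All 6 were called lower with the loess scaling too, at -0.71 to -2.43, which is a description because they were chosen for their fall. Host genes throughout are those around the microRNA gene in RefSeq (GRCm38.p6), and no region was itself placed in a host gene.

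The 5 regions of highest level fell on the deposited scale, and the loess scaling removed or reversed that fall. The region near Mir3089, chr2:30607109-30609295, held 138 and 136 RPM in Gel and 95.5 and 87.3 RPM in CuNZ@Gel (-0.58 ± 0.07, but 0.20 and called higher with the loess scaling). The regions near Mir142 at chr11:87646060-87647962 (-0.61, loess 0.16) and chr11:87639307-87641036 (-0.74, loess -0.01) were not called with the loess scaling. The same held for the region near Mir23a at chr8:84929824-84931221 (-0.61, loess 0.16) and that near Mir3091, in the ribosomal protein gene Rps21, at chr2:179898050-179899422 (-0.75, loess -0.01). These levels are not per length, and the 5 regions are 1373 to 2187 bases wide. Per kb of region they stood at 62.6 to 95.8 RPM in Gel, against a median of 8.55 over all microRNA regions and a highest value of 127.8 at Mir210.

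Some names held regions of both signs. Of 106 microRNA names with at least 2 called regions, 39 had both a rise and a fall (36.8%), a lower share than over all 7675 such gene names (53.7%). Mir496b, in Gnaq, had 15 regions, of which 3 rose and 3 fell, and Mir3092, in Fndc3b, had 13, of which 3 rose and 4 fell. Mir7681, in Hecw2, had 13, of which 3 rose and 2 fell. The summed changes were -0.22 for Mir496b, -0.19 for Mir3092 and -0.11 for Mir7681 on the deposited scale and 0.25, 0.29 and 0.33 with the loess scaling, so the direction of these sums is set by the scaling.

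The place of the microRNA gene was read from RefSeq (GRCm38.p6). A total of 412 names lie inside a protein-coding gene, and of 403 tested 107 rose and 69 fell (26.6% and 17.1%). Of 98 names between genes, 93 were tested, 18 rose and 29 fell (19.4% and 31.2%). Over all names 20.5% rose and 36.1% fell. With the loess scaling these counts were 110 and 64 inside protein-coding genes (27.3% and 15.9%) and 19 and 20 between genes (20.4% and 21.5%), against 24.2% and 22.8% of all names; the difference between the places was not tested. Names with numbers of 4 digits or more, many of them found by sequencing and without a known role, made up 410 of the 576, and of 404 tested 103 rose and 73 fell (25.5% and 18.1%). Of the older names and let-7, 157 were tested, 43 rose and 37 fell (27.4% and 23.6%).

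Few regions carried the names of imprinted and stem cell clusters. Of 61 names of the Dlk1-Dio3 cluster on chromosome 12, 1 had a region: Mir3072, in the host transcript Mirg, held 2.80 and 5.57 RPM in Gel and 17.7 and 14.7 RPM in CuNZ@Gel (1.78 ± 0.22). Of 71 names of the Sfmbt2 intron cluster 1 had a region, which did not pass the test, and of 9 names of the Mir290 to Mir295 cluster, active in pluripotent cells, 3 had a region and 1 rose.

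MicroRNAs that mark muscle, liver, epithelium, neurons, pluripotent cells, endothelium and islets were also examined. Of 41 names 16 had a region, 2 rose (Mir133a-1 and Mir293) and 3 fell (Mir141, Mir200c and Mir499). The shares, 12.5% and 18.8%, were below those of all names (20.5% and 36.1%). With the loess scaling none rose and 2 fell (0% and 12.5%, all names 24.2% and 22.8%). Their summed level was 218 and 216 RPM in Gel and 183 and 192 RPM in CuNZ@Gel. Mir499 in the myosin gene Myh7b (89.2 and 84.4 RPM in Gel) and Mir200c (56.5 and 65.5 RPM in Gel) supplied most of it. Mir122, Mir205 and Mir1a-1 held between 1.86 and 12.7 RPM in each library and did not pass the test.

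Regions near genes of the microRNA machinery mostly fell on the deposited scale. Of 21 genes 19 had regions and were tested, 1 rose and 14 fell (5.26% and 73.7%, all names 20.5% and 36.1%), with a median of -0.45. With the loess scaling 4 rose and 6 fell (21.1% and 31.6%, all names 24.2% and 22.8%), with a median of -0.12. Ago2, the slicing Argonaute, went from 529 and 529 RPM to 258 and 256 RPM (-1.04 ± 0.03, and -0.54 with the loess scaling). Dgcr8 went from 66.5 and 77.4 RPM to 42.1 and 49.2 RPM, and Dicer1 from 59.7 and 68.5 RPM to 35.2 and 49.1 RPM. Drosha, the nuclear nuclease, was the only called rise on the deposited scale (1.15 ± 0.21). Its levels were low, with 3.21 and 2.78 RPM in Gel and 8.01 and 7.73 RPM in CuNZ@Gel. On background pileup scaling its change was 0.28 and not called.

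Host transcripts of microRNAs, which carry the suffix hg and were not members, gave 5 rises and 1 fall among 10 (50% and 10%, all names 20.5% and 36.1%), and 5 and 0 with the loess scaling (all names 24.2% and 22.8%). Mir124a-1hg rose from 4.66 and 4.52 RPM to 9.82 and 13.6 RPM (1.17 ± 0.19). Mir22hg, with the most reads of them, went from 282 and 272 RPM to 194 and 190 RPM (-0.52 ± 0.04, and -0.05 and not called with the loess scaling).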

How the data were processed

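ATAC-seq was measured in 4 libraries of RAW264.7 cells, 2 titled Gel and 2 titled CuNZ@Gel. The submitters' processing notes name MACS2 2.2.8, Picard 2.27.5, SAMtools 1.17, Bowtie2 2.3.4.3, fastp 0.23.1 and the mouse build GRCm39, with no roles or settings. The authors deposited log2 values for 80929 regions in each library, with the nearest gene as the name of a region. The deposited log2 values match log2(RPM + 1): with the logarithm undone, 100% of low values lay at most 0.1 from a whole read. The authors also deposited 1 peak list for each library, called on that library alone, and each peak there carries an integer score, a −log10 p-value, a −log10 q-value and a fold (ratio) over local background. The deposited folds are the authors' own and served to recover the background pileup and to say where a peak was called. Peaks no more than 1 base apart were merged over the lists, which returned 80929 regions in the order of the value tables and with them the GRCm39 coordinates, counted from 1. All 1312 microRNA regions that could be checked lay on the chromosome of their gene.

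Regions, and sums of RPM over the regions of a name, were compared in R 4.3.3 with limma 3.58.1 (two-sided, intensity trend, 4 libraries, no covariate), with Benjamini-Hochberg adjustment over all 77014 regions or 25900 names and a threshold of 0.05. The filter asked for 10 reads at the median depth in 2 or more libraries and for 15 reads over the 4. The log2(RPM + 1) scale understates changes of low values. No SD over 2 libraries is given; values are printed for each library, with the SE of the fitted change. The libraries held 7440949 to 18843565 reads in regions, and counting error is larger in CuNZ@Gel. Alternatives were other scalings, filters, a pseudocount of 0.25, voom, the replicate number as a block and each library left out. Members, lists and tests were chosen with earlier results of these data known. Named microRNAs were those of 3 lists with known macrophage roles, the 6 largest rises and 6 largest falls of called regions at or above the median level with no overlap between groups, the 5 regions of highest level and the 3 names with the most regions. Of the regions this rule selects, 1 is not reported here. Mir21c, Mir1928 and Mir3072, single regions of a name, and the machinery and host genes were named as examples after their values were seen.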

Additional observations from a re-analysis of the deposited data

How the results depend on the processing

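With 4 libraries, and with fewer reads in regions and a higher background pileup in both CuNZ@Gel libraries, the scaling decided more than any other choice. On background pileup scaling 66 regions rose and 767 fell, and 19 names rose and 386 fell. With the totals of reads in regions, 83 regions fell, 230 names rose and 39 fell. The shares over all regions and names on these scalings are given in the results. Leaving out 1 library at a time gave 201 to 276 regions higher and 112 to 199 lower, and 105 to 137 names higher and 79 to 115 lower. Replicate numbers did not pair the samples (correlation of same-numbered deviations 0.016). The fit with a replicate block called 314 regions higher and 194 lower (23.6% and 14.6%, all regions 21.7% and 22.4%). It called 155 names higher and 114 lower (27.6% and 20.3%, all names 21.6% and 37.3%). No call changed among the 57 named results. Those 57 also kept their calls with voom, without a filter, with a pseudocount of 0.25 and without CuNZ@Gel replicate 2.

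Among the 57, the results that changed sign and were called on at least 1 of the 2 scalings were these. On background pileup scaling, all above the median of -1.06 over all names, they were the sums of Mir147 -0.53, Mir125b-2 -0.95, Mir221 -0.26, Mir222 -1.01, Mir187 -0.79, Mir29b-1 -0.99, Mir29c -0.55, Mir33 -0.65, Mir378a -0.57 and Mirlet7d -0.998. With the loess scaling the sums of Mirlet7i (0.0735), Mir496b (0.25), Mir3092 (0.29) and Mir7681 (0.33) and the regions near Mir3089 (0.20), Mir142 (0.16) and Mir23a (0.16) did so, and with library totals the sums of Mir496b (0.0687), Mir3092 (0.10) and Mir7681 (0.17). Sums called on neither scaling that changed sign included Mir9-2 (-0.19 with loess, -0.24 on background pileup) and, with library totals, Mir342 (0.12) and Mir511 (0.06). Outside the 57, sign changes included Mir133a-1 (-0.45) and Mir3074-1 (-0.30) on background pileup. The cause was not tested. Depth limits the weakest names most: Mir155, Mir223 and Mir92-1 rest on at most 38 reads in each region of each library.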
